A study of Mus musculus with 16 samples.

Results

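Ligands and receptors of the HGF, EGF and FGF7 growth factor systems were followed in sorted mouse liver cells. The set holds 10 genes of the 28034 named on the array, chosen by symbol: Hgf and its receptor Met, the EGF family ligands Hbegf, Tgfa, Areg and Ereg with the receptors Egfr and Erbb3, and Fgf7 with its receptor Fgfr2. They were represented by 28 probes, all of which passed the filter on dim probes, so each of the 10 genes was tested among 23312 genes. The filter kept a probe that was well above background in at least 50% of the samples of any of the 4 groups. The 10 genes were chosen with earlier results of these data known, so their counts beside the shares of all genes are a description.

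The cells were nonparenchymal liver cells of c129/S3 mice, sorted on MIC1-1C3 (M), an antibody against a biliary surface antigen, and on CD133 (133), encoded by Prom1. M+133+ cells carry both antigens and M-133- cells neither, and each was collected after DDC and from untreated mice. DDC is a porphyrinogenic compound known for provoking a ductular reaction, and was fed at 0.1% (w/w) in the diet for 2 weeks. The groups were M+133+ DDC (n = 4), M-133- DDC (n = 4), M+133+ untreated (n = 4) and M-133- untreated (n = 2). No allele or transgene is given in the labels, and the design calls the samples biological replicates without saying whether each came from its own animal, so the p-values measure the spread between these samples. Amplified cDNA of sorted cells was hybridised to 16 single-colour arrays on 5 slides. Each sample had 1 array, except that M+133+ untreated sample 1 and sample 2 of the M-133- untreated group had 2, which were averaged.

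HGF is made mainly by stellate and other mesenchymal liver cells as an inactive precursor, and once cleaved it binds the tyrosine kinase MET on epithelial cells. EGF family ligands are made as membrane-bound precursors that are shed and bind EGFR (amphiregulin, TGF-alpha, epiregulin and HB-EGF). ERBB3, which binds neuregulins and has little kinase activity of its own, signals through its partner receptors. FGF7 is a mesenchymal ligand for the epithelial isoform of FGFR2, and FGF7 has been described in ductular reactions. The array probes were not matched to receptor isoforms here.

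Each gene was read through probes of 60 bases. The probes below are a selection from those of the genes compared in what follows, and none of Hbegf, Tgfa or Ereg is among them. Each printed probe has a reading frame without a stop codon over its whole length. The probes left out were not examined for this. Bases in capitals mark the stretch of 40 bases that 2 overlapping Erbb3 probes share, which ties their values together. Positions are those of the array files on mm9, with the strand.
Hgf A_52_P435080 (chr5:16121326-16121385, +): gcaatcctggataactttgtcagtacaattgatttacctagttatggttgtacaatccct
Met A_51_P103929 (chr6:17503299-17503358, +): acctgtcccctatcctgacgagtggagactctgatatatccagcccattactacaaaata
Egfr A_52_P56471 (chr11:16783545-16783604, +): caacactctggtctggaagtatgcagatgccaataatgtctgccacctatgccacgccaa
Erbb3 A_51_P488243 (chr10:128009215-128009503, −): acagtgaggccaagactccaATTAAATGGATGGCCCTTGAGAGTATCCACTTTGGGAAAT
Erbb3 A_51_P342050 (chr10:128009195-128009254, −): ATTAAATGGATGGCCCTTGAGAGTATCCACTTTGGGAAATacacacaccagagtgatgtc
Areg A_52_P482897 (chr5:91570090-91570149, +): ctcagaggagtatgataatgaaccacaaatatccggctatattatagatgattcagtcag
Fgf7 A_51_P465331 (chr2:125915147-125915206, +): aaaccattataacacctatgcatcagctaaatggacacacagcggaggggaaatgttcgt
Fgfr2 A_52_P158800 (chr7:137385966-137386025, −): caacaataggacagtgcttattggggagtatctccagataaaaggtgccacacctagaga
The first Erbb3 probe spans a longer stretch of the genome than its own length, as a probe across an exon junction does. The Hgf probe lies in the serine protease-like part of the protein and the Met probe in its juxtamembrane part. Exon and UTR annotation was not used here.

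Levels are log2 processed signals minus the 75th percentile of the same array, so 0 is that percentile, and levels of different probes are not compared with each other. The array percentile ranged from 603 to 2732 signal units, between 59.7% and 77.0% of probes were well above background, and no probe was saturated. Prom1, the gene of the sorted antigen CD133, checked the labels: its level was 1.50 ± 0.66 in M+133+ DDC cells and -6.48 ± 2.17 in M-133- DDC cells (SD, n = 4 each), and 1.58 ± 0.31 in M+133+ untreated cells (n = 4) and -8.04 ± 0.43 in M-133- untreated cells (n = 2). The 2 arrays of M-133- untreated sample 2 agreed less well than those of M+133+ untreated sample 1: over 34592 probes, Pearson's r was 0.812 against 0.892, and the median absolute log2 difference was 1.40 against 0.713. Pairs of different samples of one group correlated at 0.83 to 0.92, but over the 23312 tested genes and with repeat arrays averaged. Gene-level calls of named genes that rest on the M-133- untreated group are therefore also given without M-133- untreated sample 2. Exceptions are Plxnb1 and Fgfr3, given without sample 1 of that group. The median log2 difference over all tested genes was 0.31 in M+133+ against M-133- after DDC and -0.36 in M-133- cells after DDC against untreated; with the array median as centre these medians were -0.39 and 0.31. Every member difference called below is larger than these shifts.

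**Figure D1:**
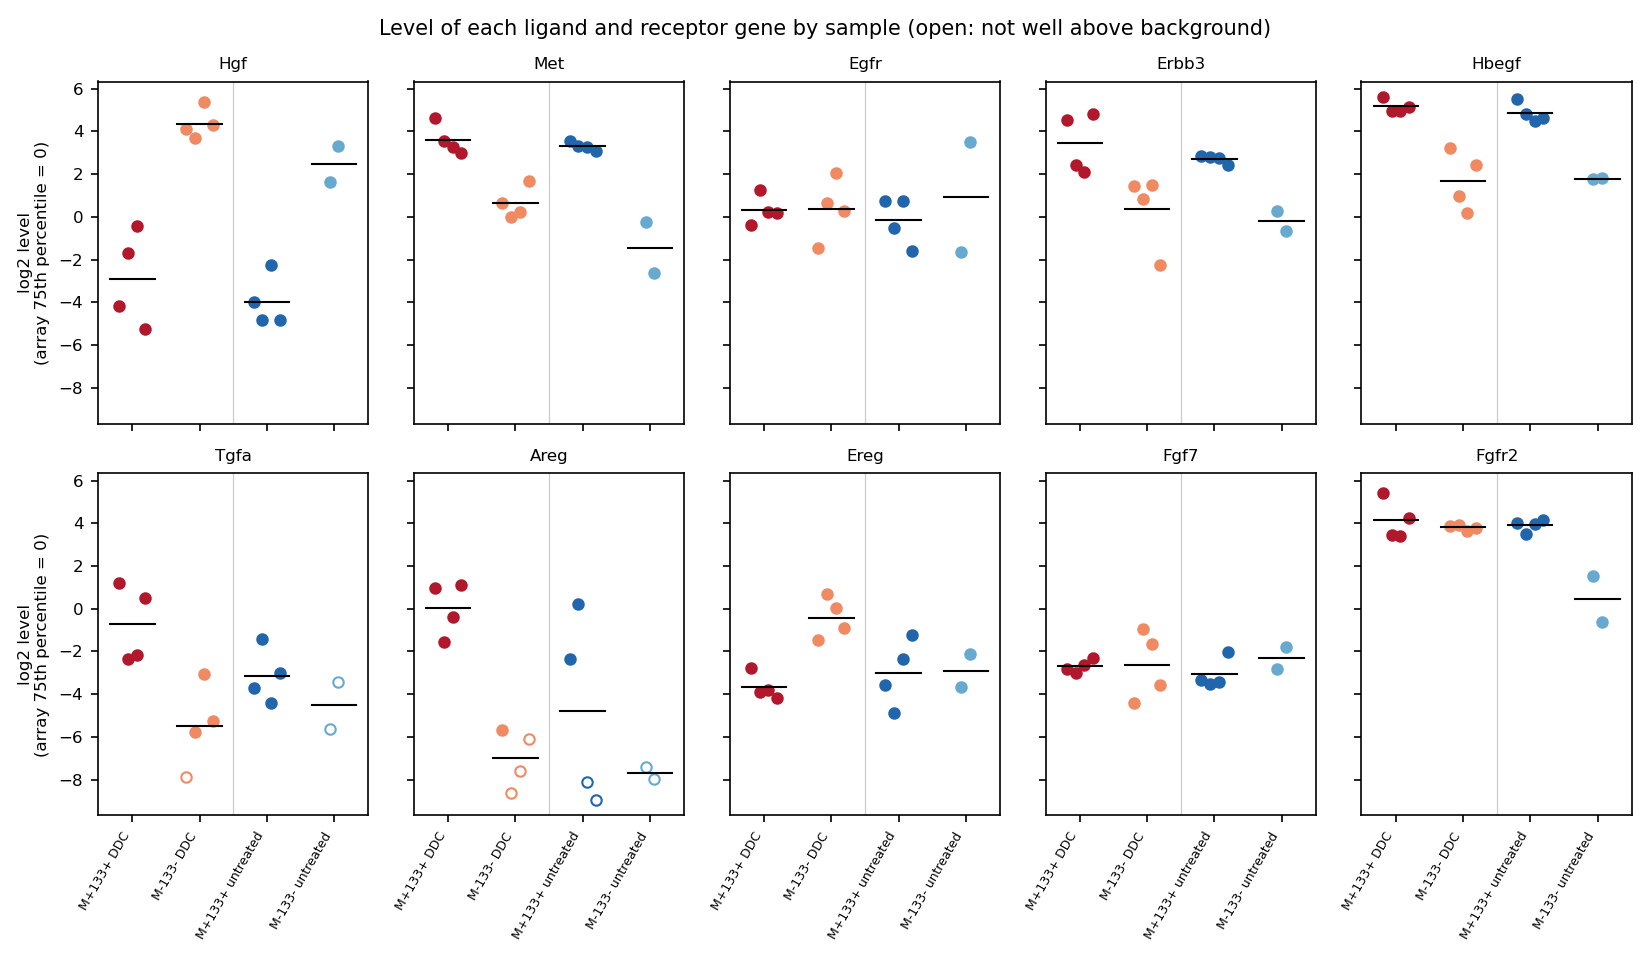
Log2 level of each gene (y axis, array 75th percentile = 0) in each sample, for its brightest probe; groups run along the x axis, points are samples, bars are group means, and open points are samples not well above background. Hgf is low in both M+133+ groups and high in both M-133- groups, Met and Hbegf show the opposite order, Areg is well above background in all 4 M+133+ DDC samples, and Fgfr2 is low only in the 2 M-133- untreated samples.

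Between the sorts, the ligand Hgf was lower and its receptor Met higher in M+133+ than in M-133- cells, both after DDC and in untreated livers. Hbegf, the ligand HB-EGF, was higher in M+133+ cells in both settings. After DDC, M+133+ cells also had more Areg, Tgfa and Erbb3 and less Ereg than M-133- cells on the brightest probe of each gene. Of these, Areg, Tgfa and Ereg were not called with slide as a fixed block, nor was Erbb3 with the array median as centre. The other Ereg probe went the opposite way. In untreated livers Fgfr2 was higher in M+133+ than in M-133- cells, and within the M-133- sort it was higher after DDC than without it. Egfr and Fgf7 passed the test in no comparison.

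After DDC, 7 of the 10 genes were called between the sorts, 5 of them higher in M+133+ and 2 lower, where a call needed an adjusted p under 0.05 (limma, Benjamini-Hochberg over all genes); over all tested genes 12.9% were called, 6.44% higher and 6.47% lower. No slide held both sorts after DDC, so sort and slide can be separated there only through the untreated arrays. With slide as a fixed block the DDC calls of Areg, Tgfa and Ereg were lost. In untreated cells 4 of 10 were called, 3 higher and 1 lower, against 8.79% of all tested genes, 3.63% higher and 5.16% lower. The groups did not overlap for 7 of the 10 genes after DDC, where they did not for 14.7% of all tested genes, and for 5 of 10 in untreated cells, where with 4 against 2 samples they did not for 33.7%. The median difference of the 10 genes was 1.65 after DDC, beside 0.31 for all tested genes, and 2.14 in untreated cells, beside -0.07. The direction split of all genes depended on the centring: after DDC 1501 were higher and 1509 lower, but 876 higher and 2423 lower with the array median as centre, where 4 members were higher and 2 lower.

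**Figure D2:**
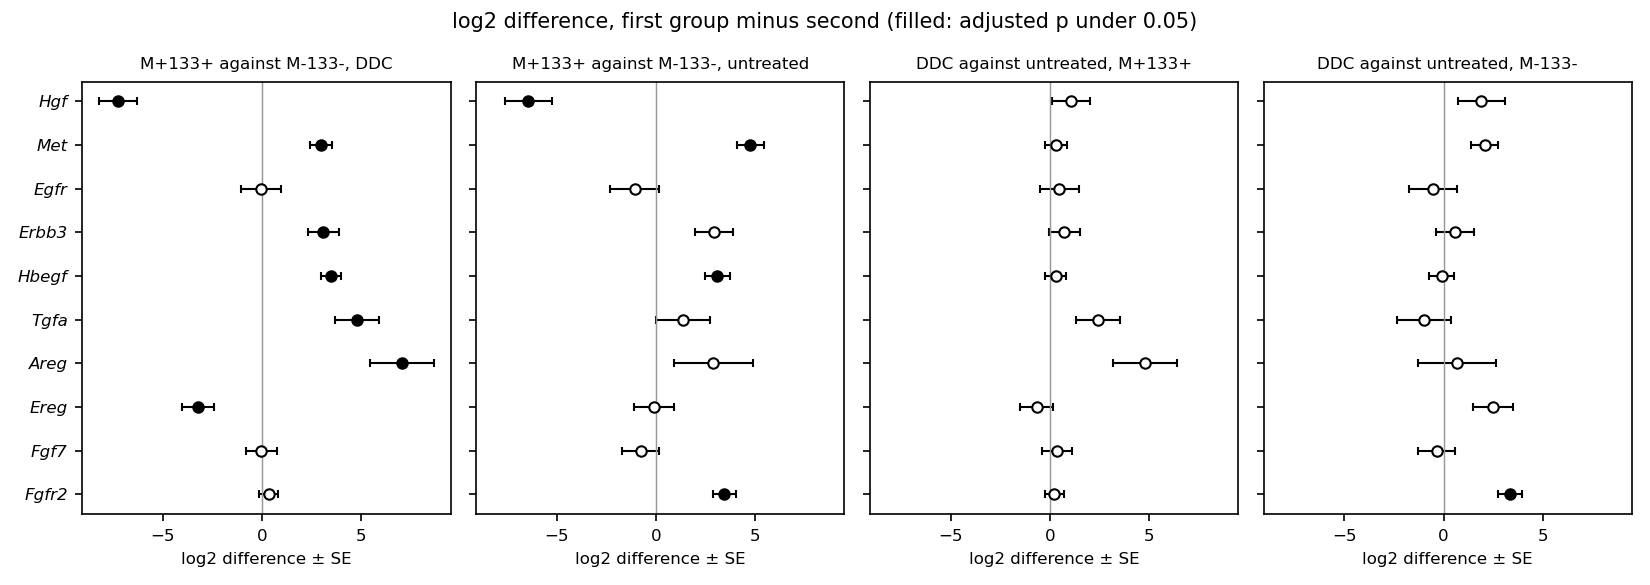
Log2 difference ± SE (x axis) of each gene (rows) in 4 comparisons (panels), M+133+ minus M-133- after DDC and untreated, and DDC minus untreated in each sort; filled points had an adjusted p under 0.05. Hgf stands at -7.26 and -6.44 in the panels of the sorts, while in the panels of DDC the only filled point is Fgfr2 in M-133- cells at 3.35.

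Hgf was at -4.17, -1.68, -0.44 and -5.26 in the M+133+ DDC samples, against 4.13, 3.68, 5.40 and 4.28 in the M-133- DDC samples. In untreated cells it was at -3.99, -4.82, -2.26 and -4.82 in M+133+ samples, against 1.62 and 3.32 in M-133- samples. No M+133+ sample reached any M-133- sample. The difference was -7.26 ± 0.97 after DDC, which is 153-fold lower in M+133+ cells (differences are given ± SE here and below; limma, adjusted p = 0.00016), and -6.44 ± 1.19 in untreated cells, 86.9-fold lower (adjusted p = 0.00311). The untreated call was lost without M-133- untreated sample 2, where the difference was -5.59 (adjusted p = 0.0555), and it held without sample 1 at -7.29 (adjusted p = 0.0206). Within the slides that held both untreated sorts the difference was -5.50 on slide 2 and -9.65 on slide 4. No slide held both sorts after DDC, so no within-slide value can be given there.

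All 4 Hgf probes had negative differences, -8.53 to -7.01 after DDC and -6.87 to -5.27 in untreated cells, and they correlated with each other over the 14 samples (Pearson's r 0.784 to 0.938 over 6 pairs). After DDC all 4 were called. In untreated cells 3 were called. The probe whose sequence is printed above was not (-6.54, adjusted p = 0.114): on it M+133+ untreated sample 3 stood at 0.94, while the other 3 were not well above background. On probe A_52_P421815 no M+133+ untreated sample was well above background, and the level there was at least 27.5-fold lower than in M-133- untreated cells (adjusted p = 0.0022). In the authors' deposited table, which gives M-133- over M+133+, Hgf had a fold of 143 after DDC at a false discovery rate of 0.48% and of 103 in untreated cells at 0.22%.

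Met was at 4.61, 3.53, 3.27 and 3.00 in the M+133+ DDC samples, against 0.64, 0.017, 0.21 and 1.67 in the M-133- DDC samples. The untreated samples stood at 3.57, 3.33, 3.25 and 3.07 in the M+133+ sort, against -0.25 and -2.64 in M-133- samples. The sorts did not overlap in either setting, and the 4 untreated M+133+ samples lay close together (SD 0.21). Met was 7.85-fold higher in M+133+ cells after DDC (2.97 ± 0.55, adjusted p = 0.00201) and 26.9-fold higher in untreated cells (4.75 ± 0.67, adjusted p = 0.000514). The size of the untreated difference rested on M-133- untreated sample 2, whose 2 arrays read -0.06 and -5.22: it was 3.55 without that sample (adjusted p = 0.0113) and 5.94 without sample 1 (adjusted p = 0.000625). On slides 2 and 4 it was 3.61 and 8.28. After DDC the difference was 5.61 in a fit blocked on slide (adjusted p = 0.0111). That fit joins the sorts after DDC only through untreated arrays. Slides 3 and 4 held the M+133+ DDC samples, and the only M-133- array on them is the one that read -5.22. All 3 Met probes were called higher in M+133+ cells in both settings, by 2.97 to 4.80 after DDC and by 4.75 to 5.27 in untreated cells.

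**Figure D3:**
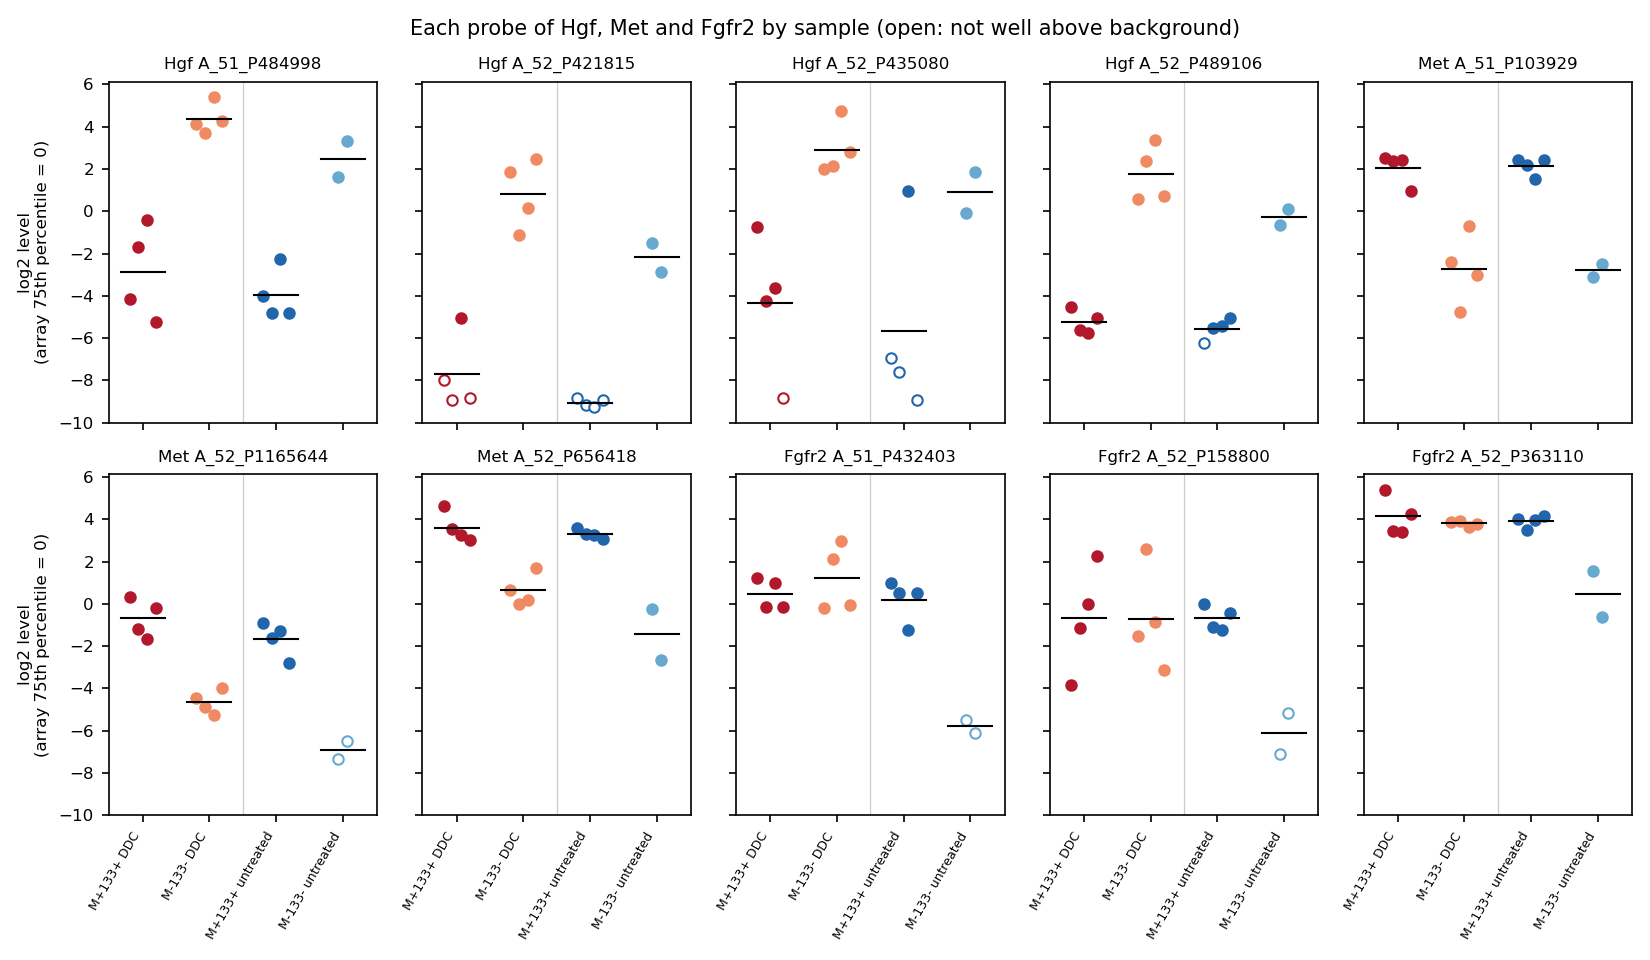
Log2 level (y axis, array 75th percentile = 0) of every probe of Hgf (4 panels), Met (3 panels) and Fgfr2 (3 panels) by sample, with groups along the x axis, bars at group means and open points for samples not well above background. All Hgf probes lie lower and all Met probes higher in M+133+ than in M-133- groups by their means, and the M-133- untreated samples are lowest on all 3 Fgfr2 probes.

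Among the EGF family ligands, Hbegf was at 5.61, 4.96, 4.95 and 5.17 in the M+133+ DDC samples, against 3.22, 0.98, 0.18 and 2.42 in the M-133- DDC samples. Untreated livers gave 5.53, 4.82, 4.50 and 4.63 in M+133+ samples, against 1.76 and 1.82 in M-133- samples. The sorts did not overlap. Hbegf was 11.1-fold higher in M+133+ cells after DDC (3.48 ± 0.52, adjusted p = 0.000421) and 8.47-fold higher in untreated cells (3.08 ± 0.64, adjusted p = 0.00674). The untreated value barely moved when either M-133- sample was left out, at 3.05 without sample 1 and 3.11 without sample 2, but the adjusted p became 0.0692 and 0.0504. It was 3.44 within slide 2 and 2.93 within slide 4.

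Areg, which encodes amphiregulin, was at 0.96, -1.58, -0.40 and 1.13 in the M+133+ DDC samples, against -5.70, -8.64, -7.59 and -6.11 in the M-133- DDC samples, of which only the first was well above background. M+133+ untreated samples were split, at -2.35, 0.24, -8.10 and -8.95 with the last 2 not well above background, and M-133- untreated samples were at -7.39 and -7.98, neither well above background. After DDC the difference between the sorts was 7.04 ± 1.62 (adjusted p = 0.00897). With normexp background correction it was 3.80 (adjusted p = 0.00895). In untreated cells the sorts overlapped and the difference did not pass the test (95% interval -1.34 to 7.13, adjusted p = 0.506). Areg had the largest pooled spread within groups of the 10 genes, an SD of 2.65, beside a median of 1.14 over all tested genes.

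Tgfa, which encodes TGF-alpha, was at 1.19, -2.36, -2.18 and 0.52 in the M+133+ DDC samples, against -7.89, -5.76, -3.04 and -5.28 in the M-133- DDC samples, the first of them not well above background. In untreated cells it was at -3.72, -1.42, -4.41 and -3.02 in M+133+ samples, against -5.64 and -3.41 in M-133- samples, the first not well above background and the second on 1 of its 2 arrays only. Groups did not overlap after DDC and overlapped in untreated cells. The difference was 4.79 ± 1.11 after DDC (adjusted p = 0.00952) and 1.38 ± 1.36 in untreated cells (adjusted p = 0.693). After DDC the Tgfa difference was 2.60 with normexp (adjusted p = 0.0344) and 3.01 for the mean of its probes (adjusted p = 0.0419). A second Tgfa probe, A_52_P555423, differed by 1.24 after DDC and was not called (adjusted p = 0.539), and the 2 probes correlated at 0.433 over the samples. A fit that blocked on slide called neither Tgfa (5.03, adjusted p = 0.092) nor Areg (8.03, adjusted p = 0.0854) after DDC.

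Ereg, which encodes epiregulin, ran the other way: it was at -2.77, -3.90, -3.79 and -4.18 in the M+133+ DDC samples, against -1.47, 0.68, 0.03 and -0.90 in the M-133- DDC samples. The untreated samples stood at -3.55, -4.89, -2.33 and -1.22 in the M+133+ sort, against -3.68 and -2.13 in M-133- samples. The sorts were separate after DDC and mixed in untreated cells. Ereg was 9.50-fold lower in M+133+ cells after DDC (-3.25 ± 0.81, adjusted p = 0.0152), and the untreated difference was -0.09 ± 1.00 (adjusted p = 0.979). This rests on 1 of 2 probes: the other, A_51_P157223, differed by 0.79 in the opposite direction (adjusted p = 0.592), was well above background in 3 of 4 M+133+ DDC and 2 of 4 M-133- DDC samples, and did not follow the first over the samples (r = -0.004). The mean of both probes was not called (-1.23, adjusted p = 0.28), nor was Ereg in the fit blocked on slide (-3.87, adjusted p = 0.0837).

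Of the receptors, Erbb3 was at 4.52, 2.44, 2.09 and 4.82 in the M+133+ DDC samples, against 1.46, 0.82, 1.49 and -2.23 in the M-133- DDC samples. Untreated livers gave 2.87, 2.82, 2.78 and 2.45 in M+133+ samples, against 0.28 and -0.66 in M-133- samples. The sorts did not overlap in either setting. The difference was 3.08 ± 0.80 after DDC (8.47-fold, adjusted p = 0.0181) and 2.92 ± 0.98 in untreated cells, where it did not pass the test (adjusted p = 0.0841, 95% interval 0.84 to 5.01; 2.45 without M-133- untreated sample 2). The DDC call was lost without M+133+ DDC sample 1 (2.73, adjusted p = 0.0581), without M+133+ DDC sample 4 (2.63, adjusted p = 0.064) and with the array median as centre (2.38, adjusted p = 0.0706). The untreated difference was called without M-133- DDC sample 4, the lowest Erbb3 sample, at an adjusted p of 0.0188.

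All 5 Erbb3 probes had positive differences in both settings. After DDC they ran between 1.60 and 5.68 and 3 were called, A_52_P133607 at 5.68 (adjusted p = 0.00991), A_52_P432949 at 3.08 (adjusted p = 0.0181) and A_51_P414813 at 2.92 (adjusted p = 0.0177). The overlapping pair printed above was not, at 2.30 for A_51_P342050 (adjusted p = 0.102) and 1.60 for A_51_P488243 (adjusted p = 0.456). In untreated cells the 5 probes ran between 2.10 and 3.81 and none was called.

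Egfr, the receptor of all 4 EGF family ligands above, was at -0.36, 1.26, 0.21 and 0.20 in the M+133+ DDC samples, against -1.44, 0.63, 2.06 and 0.29 in the M-133- DDC samples. In untreated cells it was at 0.75, -0.53, 0.76 and -1.60 in M+133+ samples, against -1.65 and 3.50 in M-133- samples. On the brightest probe, which gave these values, the groups overlapped throughout. The difference between the sorts was -0.06 after DDC (95% interval -2.19 to 2.07) and -1.08 in untreated cells (95% interval -3.69 to 1.53). Differences of several-fold in either direction, and of more in the negative direction in untreated cells, remain within these intervals. On probe A_52_P5855 the M-133- untreated samples, at -2.18 and -8.30, lay below all M+133+ untreated and all M-133- DDC samples. The second was not well above background. There the untreated sort difference was 4.38, and the difference of M-133- DDC against untreated was 4.42. None of the 6 Egfr probes was called in any comparison. They did not move together, with correlations between -0.419 and 0.815 over 15 pairs and a median of 0.162, and the 2 arrays of M-133- untreated sample 2 read 1.27 and 5.72 on the brightest probe.

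Fgf7 was at -2.83, -3.00, -2.63 and -2.32 in the M+133+ DDC samples, against -4.42, -0.96, -1.66 and -3.58 in the M-133- DDC samples. The untreated samples stood at -3.33, -3.53, -3.41 and -2.05 in the M+133+ sort, against -2.84 and -1.77 in M-133- samples. All samples were well above background and the groups overlapped. The difference between the sorts was -0.04 after DDC (95% interval -1.67 to 1.59, adjusted p = 0.984) and -0.77 in untreated cells (95% interval -2.77 to 1.22, adjusted p = 0.764).

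Fgfr2 was at 5.40, 3.46, 3.41 and 4.27 in the M+133+ DDC samples, against 3.88, 3.92, 3.66 and 3.77 in the M-133- DDC samples. Untreated livers gave 4.03, 3.48, 3.95 and 4.17 in M+133+ samples, against 1.54 and -0.63 in M-133- samples. The M-133- untreated samples stood below all the others, and the other 3 groups overlapped. Between the sorts Fgfr2 was 10.9-fold higher in untreated M+133+ cells (3.45 ± 0.59, adjusted p = 0.00187), while after DDC the difference was 0.32 (95% interval -0.70 to 1.35, adjusted p = 0.731). The untreated difference was 2.36 without M-133- sample 2 (adjusted p = 0.0408) and 4.54 without sample 1 (adjusted p = 0.00154). It was 3.68 within slide 2 and 5.70 within slide 4.

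DDC against untreated was then compared within each sort. In M+133+ cells 0 of the 10 genes were called, where 0.24% of all tested genes were called by limma (56 genes, with 2906 at an unadjusted p under 0.05), 0.146% higher and 0.0944% lower. Areg had the largest difference of the 10, 4.82 ± 1.62 (unadjusted p = 0.0096, adjusted p = 0.232), followed by Tgfa at 2.44 ± 1.11 (unadjusted p = 0.0451, adjusted p = 0.387). Both groups of M+133+ samples overlapped for both genes. For Areg the difference was 3.62 within slide 3 and 9.32 within slide 4, and it ran between 3.43 and 6.49 as single M+133+ samples were left out, with adjusted p values between 0.0705 and 0.509. For Met and Fgfr2 the 95% intervals of the difference were -0.87 to 1.47 and -0.80 to 1.25.

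In M-133- cells 1 of 10 genes was called after DDC, where 1.01% of all tested genes were, 0.613% higher and 0.395% lower. Of these 235 genes 143 were higher and 92 lower, or 230 and 42 with the array median as centre, and 164 and 52 with quantile normalization. The called gene was Fgfr2, 10.2-fold higher after DDC (3.35 ± 0.59, adjusted p = 0.0125). The call was lost without M-133- untreated sample 2 (2.27, adjusted p = 0.117) and held without sample 1 (4.44, adjusted p = 0.00512). For the mean of the Fgfr2 probes the difference was 5.26 (adjusted p = 0.00224). Within slide 1 the difference was 2.34 and within slide 2 it was 3.53. In the authors' deposited table this probe had a fold of 11.2, DDC over untreated, at a false discovery rate of 11.26%.

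On the other Fgfr2 probes the M-133- untreated samples were also the lowest. A_51_P432403 was at -0.20, 2.12, 2.99 and -0.04 in the M-133- DDC samples, against -5.51 and -6.09 in the M-133- untreated samples. The first of these untreated samples was not well above background, and the second was on 1 of its 2 arrays. The difference was 7.01 ± 0.95 (adjusted p = 0.0021 over 34592 probes). A_52_P158800, whose sequence is printed above, was at -1.52, 2.61, -0.87 and -3.13 in the M-133- DDC samples, against -7.09 and -5.17 in the M-133- untreated samples. It differed by 5.40 ± 1.54 with groups that did not overlap and was not called (adjusted p = 0.126). The 3 probes correlated at 0.562 to 0.831 over the 14 samples.

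With Fgfr2, 4 of 10 genes had M-133- DDC samples that all lay above the M-133- untreated samples. Of all tested genes 19.8% did not overlap in this comparison of 4 against 2 samples, and 7.11% of all tested genes had the DDC samples above. The other 3 did not pass the test. The difference was 1.90 for Hgf (adjusted p = 0.563), 2.08 for Met (adjusted p = 0.183) and 2.49 for Ereg (adjusted p = 0.292). Without M-133- untreated sample 2 it was 2.75 for Hgf, 0.88 for Met and 3.27 for Ereg. For Met it was 0.89 within slide 1 and 0.17 within slide 2. For Hgf the within-slide values were 2.51 and 2.73, and for Ereg 2.22 and 2.45.

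Whether the sorts differed in their response to DDC was tested by the interaction, the sort difference after DDC minus the sort difference in untreated cells. At gene level 0 of 10 genes passed by limma, where 0.257% of all tested genes did, 0.0601% with a positive and 0.197% with a negative difference, and Ereg and Fgfr2 had an unadjusted p under 0.05. Fgfr2 came to -3.13 ± 0.76 (adjusted p = 0.13), with adjusted p values between 0.0256 and 0.473 over the alternatives tried and 4 of 27 fits calling it. On probe A_51_P432403 it was -6.73 ± 1.23 (adjusted p = 0.0379). Ereg came to -3.15 ± 1.29 (adjusted p = 0.43). The remaining 8 genes had adjusted p values of 0.524 or more, so a sort difference that was called after DDC and not in untreated cells, as for Areg, Tgfa, Erbb3 and Ereg, is not shown to differ between the settings.

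Levels across the 4 groups gave different orders for different genes. For Hgf the order of the means was M-133- DDC, M-133- untreated, M+133+ DDC and M+133+ untreated, with overlap between the last pair only. Met ran M+133+ DDC, M+133+ untreated, M-133- DDC and M-133- untreated, with overlap between the first pair only. Hbegf and Erbb3 each had M+133+ DDC on top and M+133+ untreated next, and neighbours overlapped except at the step between the sorts. For Ereg M-133- DDC stood alone on top, and for Fgfr2 M-133- untreated stood alone at the bottom. For Areg, Tgfa, Egfr and Fgf7 every group overlapped its neighbour in the order of the 4 means.

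Other genes of the same pathways were described with 4 lists, also chosen with earlier results of these data known. Between the sorts 12.9% of all tested genes were called after DDC and 8.79% in untreated cells. For DDC 0.24% were called in M+133+ and 1.01% in M-133- cells, with 2906 and 2994 of 23312 genes at an unadjusted p under 0.05. Of 16 HGF and MET partners, all tested, 5 were higher and 1 lower in M+133+ cells after DDC. In untreated cells 4 were higher and 1 lower. Their median differences were 0.86 after DDC and 0.81 in untreated cells, beside 0.31 and -0.07 for all tested genes. Spint1, an inhibitor of the proteases that activate HGF, had levels of 3.43 to 4.69 in M+133+ DDC samples, against -7.35 to -3.78 in M-133- DDC samples, a difference of 9.85 (adjusted p = 7.35e-07); in untreated cells the difference was 9.72 (adjusted p = 1.17e-05), or 10.4 without M-133- untreated sample 2 (adjusted p = 0.000244). St14, which encodes matriptase, one of those proteases, was higher by 7.97 after DDC (adjusted p = 8.89e-06) and by 7.74 in untreated cells (adjusted p = 0.000139). For both genes M-133- DDC sample 1 and M-133- untreated sample 1 were not well above background, so the size of these differences is uncertain. Over the alternatives tried the differences after DDC went down to 7.49 for Spint1 and 5.72 for St14. The untreated St14 difference was 8.23 without M-133- untreated sample 2 (adjusted p = 0.0019) and 4.75 for the mean of its probes (adjusted p = 0.00344). Plxnb1, a semaphorin receptor that associates with MET, was higher by 5.69 in untreated M+133+ cells (adjusted p = 0.00225), a call lost without M-133- untreated sample 1 (4.80, adjusted p = 0.0573). Mst1, which encodes the HGF-like ligand MSP made by hepatocytes, was lower in M+133+ cells after DDC, with a difference of -5.73 (adjusted p = 0.00199). For DDC 0 of the 16 were called by limma in either sort, with 2 in M+133+ and 3 in M-133- cells at an unadjusted p under 0.05.

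Of 20 other EGF family ligands, receptors, sheddases and inhibitors, 19 were tested, of which 3 were higher and 1 lower in M+133+ cells after DDC and 3 were higher in untreated cells. Over all tested genes 6.44% were higher and 6.47% lower after DDC, and 3.63% were higher in untreated cells. Erbb4, a neuregulin receptor, was at -2.18 to -0.61 in M+133+ DDC samples, against -8.64 to -6.63 in M-133- DDC samples where 1 of 4 was well above background, a difference of 6.50 (adjusted p = 2.59e-05). In untreated cells Erbb4 was at least 37.0-fold higher in M+133+ cells on this scale (adjusted p = 0.000239; 0.00344 without M-133- untreated sample 2). With normexp background correction and its offset the Erbb4 differences were smaller, 2.85 after DDC (adjusted p = 0.00116) and 3.46 in untreated cells (adjusted p = 0.00164), so the size of these folds depends on the background correction. Btc, which encodes the EGFR and ERBB4 ligand betacellulin, was higher by 4.17 after DDC (adjusted p = 0.0111), a call lost in the fit blocked on slide (adjusted p = 0.217), and at least 24.8-fold higher in untreated cells (adjusted p = 0.00312; 0.0389 without M-133- untreated sample 2). With normexp the Btc differences were 2.18 after DDC (adjusted p = 0.0144) and 2.98 in untreated cells (adjusted p = 0.00839). Nrg1, a neuregulin ligand of ERBB3, was lower in M+133+ cells after DDC, with a difference of -3.14 at an adjusted p of 0.0453 that passed in 9 of 27 fits; the mean of its probes gave -1.47 (adjusted p = 0.131). That call held without M+133+ DDC sample 1, M-133- DDC sample 4 or M+133+ untreated sample 2 or 3, and was lost without each of the other 10 samples (adjusted p 0.0579 to 0.122).

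Eps8, an EGFR substrate, was the only gene of this list called for DDC in M-133- cells. It was at 3.06, 0.86, 1.90 and 1.53 in the M-133- DDC samples, against -2.35 and -6.18 in the M-133- untreated samples, the second well above background on 1 of its 2 arrays only. The difference was 6.10 ± 1.06 (adjusted p = 0.0123), and 4.19 without M-133- untreated sample 2 (adjusted p = 0.116). In untreated cells Eps8 was higher by 5.90 in M+133+ cells (adjusted p = 0.00262), or 3.98 without that sample (adjusted p = 0.0611).

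Of 18 other FGF ligands, receptors and adaptors, all tested, 1 was higher in M+133+ cells after DDC, and 2 were higher and 1 lower in untreated cells. The shares over all tested genes were 6.44% higher after DDC, and 3.63% higher and 5.16% lower in untreated cells. Fgfr3 was higher by 5.47 after DDC (adjusted p = 0.000668; 0.0706 when blocked on slide) and by 5.06 in untreated cells (adjusted p = 0.00756; 0.0907 without M-133- untreated sample 1). Fgfr1 was higher by 2.80 in untreated M+133+ cells (adjusted p = 0.0198), a call lost without M-133- untreated sample 1 or 2 (adjusted p 0.164 and 0.0795), without M+133+ untreated sample 1 (adjusted p = 0.05) and with the mean of its probes (adjusted p = 0.0928). Fgf10, another mesenchymal ligand of epithelial FGFR2, was well above background in no M+133+ sample and in both M-133- untreated samples, at -1.59 and -1.70. In untreated livers it was at least 40.1-fold lower in the M+133+ sort (adjusted p = 0.0017; 0.0181 without M-133- untreated sample 2), and the difference was -3.06 with normexp (adjusted p = 0.00112). In M-133- DDC samples Fgf10 was at -2.86, -5.09, -8.09 and -8.51, the last 2 not well above background. For DDC 0 of the 18 were called by limma in either sort, with 0 in M+133+ and 3 in M-133- cells at an unadjusted p under 0.05.

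Of 18 targets and feedback inhibitors of ERK signalling, 16 were tested, of which 3 were higher in M+133+ cells after DDC and 2 in untreated cells. Of all tested genes 6.44% and 3.63% were higher in these comparisons. Fosl1, a FOS-like transcription factor induced through ERK, was higher by 6.54 after DDC (adjusted p = 0.000786) and by 5.24 in untreated cells (adjusted p = 0.0202). In M-133- DDC sample 1 Fosl1 was at -8.56, not well above background, and the sort difference after DDC was 4.71 with normexp. M-133- untreated sample 1 was not well above background for Fosl1 and sample 2 was on 1 of its 2 arrays only, so the size of the untreated difference is uncertain, at 3.39 with normexp (adjusted p = 0.0303). The untreated call was lost without M-133- untreated sample 1 or 2 (adjusted p 0.147 and 0.106) and without M+133+ untreated sample 1 (adjusted p = 0.0557). Dusp4, an ERK phosphatase, was higher by 2.91 after DDC (adjusted p = 0.00472) but by 1.33 when blocked on slide (adjusted p = 0.585) and by 2.21 with the array median as centre (adjusted p = 0.0551). Etv4, an ERK-responsive ETS factor, was higher by 2.72 after DDC (adjusted p = 0.0181) but by 0.79 when blocked on slide (adjusted p = 0.699), by 2.02 with quantile normalization (adjusted p = 0.11) or the array median as centre (adjusted p = 0.0937), and by 1.36 with normexp (adjusted p = 0.162). Spry1, a feedback inhibitor, was higher by 3.82 in untreated cells (adjusted p = 0.0126; 0.0564 and 0.126 without M-133- untreated sample 1 or 2). For DDC limma called 0 of the 16 in either sort, with 4 in M+133+ and 6 in M-133- cells at an unadjusted p under 0.05.

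Markers of liver cell types moved with these genes between the sorts. The mean level of 10 bile duct markers was 3.13 to 4.39 in M+133+ DDC samples, against -2.55 to -1.74 in M-133- DDC samples, and 2.70 to 3.22 in M+133+ untreated samples, against -4.30 and -3.23 in M-133- untreated samples. In both settings 9 of the 10 were called higher in M+133+ cells. These 10 include Prom1, the gene of the antigen CD133 on which the cells were sorted. Of all tested genes 12.9% were called between the sorts after DDC and 8.79% in untreated cells. Stellate cell and fibroblast markers had a mean of -4.18 to -0.44 in M+133+ DDC samples, against 3.50 to 4.70 in M-133- DDC samples; all 10 were called lower in M+133+ cells after DDC, and 5 of 10 in untreated cells. Hepatocyte markers, 9 of 10 of them lower in M+133+ cells in both settings, had means of -3.12 to 1.11 in M+133+ DDC samples, against 4.24 to 4.83 in M-133- DDC samples. Endothelial markers were lower in M+133+ cells for 9 of 10 genes after DDC and 8 of 10 in untreated cells. Of the other lists, 1 of 8 macrophage markers was called lower in M+133+ cells after DDC, while in untreated cells 1 was higher and 2 lower, and 2 and 1 of 4 mesothelial markers were higher after DDC and in untreated cells. Limma called 0 of the 8 T and NK cell, 5 B cell, 3 neutrophil and 3 mast cell markers tested. The M-133- cells thus held transcripts of several cell types, and in such bulk samples fewer cells of a type and less RNA per cell cannot be told apart.

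In M-133- cells the stellate list was also higher after DDC, at 3.50 to 4.70, against 1.20 and 1.36 in untreated samples. Of its 10 genes 2 were called, and 2 of 10 bile duct markers were called higher. Over all tested genes 1.01% were called in this comparison, 0.613% higher and 0.395% lower. An unadjusted p under 0.05 by limma was reached by 2994 of 23312 genes. The endothelial list was at 0.46 to 3.30 in M-133- DDC samples, against 4.44 and 4.41 in M-133- untreated samples, with 0 of 10 called by limma and 5 at an unadjusted p under 0.05. These lists moved in the comparison in which Fgfr2 was called, and their part in its difference was not tested.

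**Figure D4:**
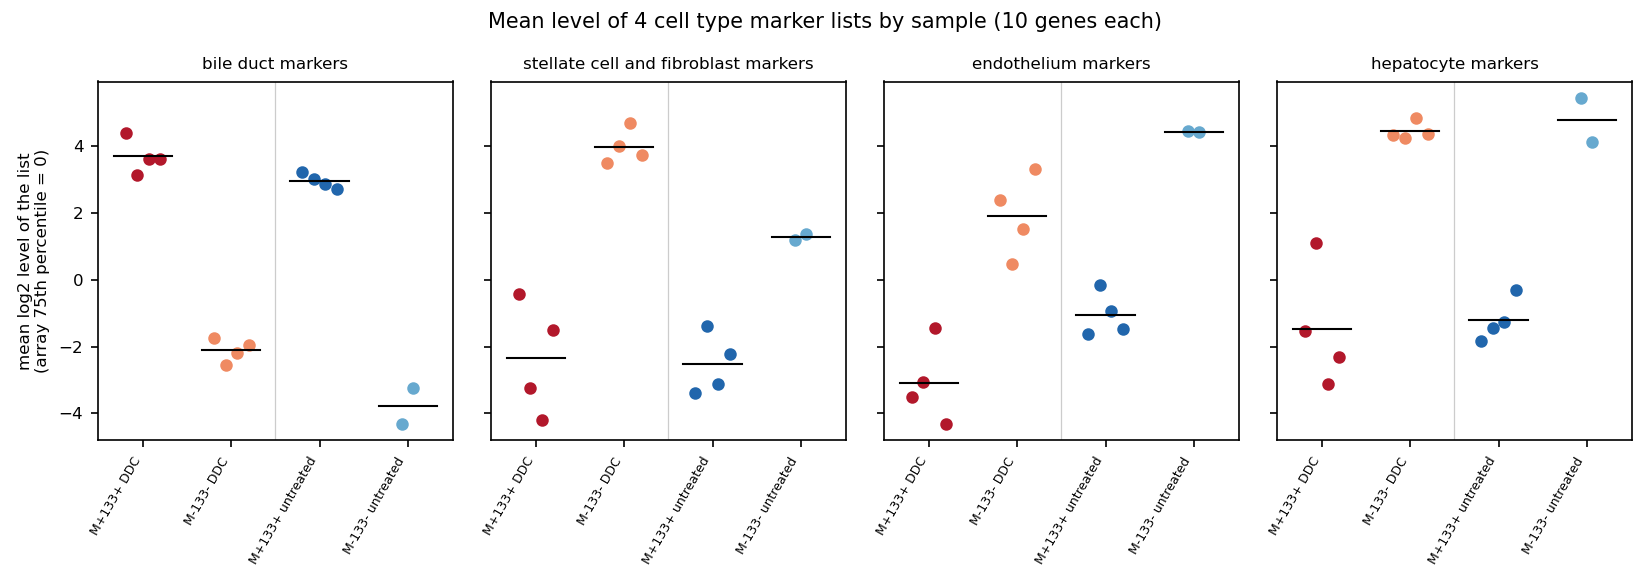
Mean log2 level (y axis, array 75th percentile = 0) of the 10 markers of bile duct, stellate cell and fibroblast, endothelium and hepatocyte in each sample, with groups along the x axis and bars at group means. Bile duct markers are high and the other 3 lists low in both M+133+ groups, and in M-133- cells the stellate list is higher and the endothelial list lower after DDC than in untreated samples.

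The genes whose levels followed each member most closely over the 14 samples are given as a description, since samples of a group share sort and treatment and any gene that separates the groups alike will correlate. Hgf was most like Enho (Pearson's r = 0.975) and Pla2g12b (0.966) among 16816 genes compared, and Met most like Anxa4 (0.976) and Dsp (0.962). Hbegf was most like Ezr (0.976) and Anxa3 (0.971), Areg most like Serpinb1b (0.973) and Serpinb5 (0.947), and Tgfa most like Lad1 (0.933) and Defb41 (0.924). Erbb3 was most like Onecut1 (0.970) and Slc4a4 (0.946), and Ereg most like Adamts12 (0.945) and Aprt (0.921). Fgfr2 was most like Spa17 (0.950) and Eps8 (0.944), and Fgf7 most like Slc27a6 (0.939) and Synpo2 (0.925). For Egfr the closest genes, Sh2d7 (0.831) and Capza1 (0.814), followed it less closely than the closest genes of the other 9 members followed theirs. The 2 members Hgf and Met correlated at -0.787 over the same samples.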

How the data were processed

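Gene expression was measured in 14 samples on 16 Agilent single-colour arrays. The deposited scanner files hold spot intensity from Feature Extraction 10.5.1.1, per the file headers, with background-subtracted processed signals and flags for spots well above background. The authors' deposited table holds their signed fold per probe and a false discovery rate in percent, both treated as scores. Per the submitters' processing notes limma was used upstream. That table was used only for values named as such.

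Symbols were updated through RefSeq accessions (26668 probes), symbols (5183) or synonyms (952), and the file's name was kept for 8343. Positions are on mm9, per the file headers. Spots of a probe were averaged on the log2 scale, the array's 75th percentile was subtracted, and repeat arrays were averaged. Probes well above background in at least 50% of the samples of a group were kept (34592 of 41174), the brightest probe stood for a gene (23312 of 28034), and 14 samples in 4 groups were fitted together with limma 3.58.1 (R 4.3.3, lmFit and eBayes with an intensity trend), without covariates. Calls are two-sided, with p adjusted by Benjamini-Hochberg across every gene tested and a threshold of 0.05; probes were fitted separately. The fit was tested on simulated data. Intervals are 95% and precision is limited by the number of arrays. Samples were fitted as unpaired. Deviations from group means did not go together by replicate number, but in groups this small that check cannot exclude pairing.

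The genes, pathway and marker lists were chosen with earlier results of these data known, so their counts beside the shares of all genes are descriptive. In each pathway list up to 3 called genes with the largest differences and groups that did not overlap are named, and the 2 genes most correlated with each member. Alternatives covered scaling, background correction, filter, probes, variance trend, slide, repeat arrays, left-out samples and blocks. One, counting a repeated sample as well above background on either array, was chosen after seeing the data.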

Additional observations from a re-analysis of the deposited data

Results flagged for a closer look

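Of 84 combinations of a member probe and a group of 4 samples, 3 held a sample that stood apart from the others by Dixon's criterion, which chance gives in about 1 in 20 such groups. Fgf7 was at -2.05 in M+133+ untreated sample 4, against -3.53 to -3.33 in the other 3. The Met probe A_51_P103929 was at 0.95 in M+133+ DDC sample 4, against 2.38 to 2.53 in the other 3, while the brighter Met probe was at 3.00 in that sample and at 3.27 to 4.61 in the others. The Egfr probe A_52_P5855 was at 1.88 in M-133- DDC sample 2, against -1.96 to -1.42 in the other 3.

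The response of Fgfr2 to DDC differed between the sorts on probe A_51_P432403, by the test of the difference itself: the interaction was -6.73 (limma, adjusted p = 0.0379 over all probes). The brightest Fgfr2 probe gave -3.13 (adjusted p = 0.13), and both values rest on 2 M-133- untreated samples. On A_51_P432403 the first of these was not well above background, and the second was on 1 of its 2 arrays. In the same cells the stellate cell list was higher and the endothelial list lower after DDC, and the part of either in this difference was not tested.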

How the results depend on the processing

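Over the alternatives tried no called member difference changed sign, except that the other Ereg probe gave 0.79 in place of -3.25 for M+133+ against M-133- after DDC. Counts of all genes called depended on the processing. For the untreated sort comparison (2049 genes, 4 members) leaving out single samples gave 814 to 2206 genes and 2 to 5 members. For the sort comparison after DDC (3010 genes, 7 members) a fixed slide block gave 1147 genes and 4 members, and left-out samples gave 2402 to 2963 genes and 6 to 7 members. For the DDC response of the M+133+ sort (56 genes, 0 members) the count was 143 with quantile normalization, 121 with normexp and quantile, 30 with the array median as centre, 88 with the stricter filter, 86 with the mean of probes, 22 without the trend, 15 and 120 with slide as a fixed or random block, and 6 to 111 with left-out samples. For that of the M-133- sort (235 genes, 1 member) it was 144 and 573 with slide as a fixed or random block and 73 to 282 with left-out samples (0 to 1 members). For the interaction (60 genes, 0 members) it was 108 with normexp, 37 without the trend, 11 and 117 with slide as a fixed or random block, 92 with the second repeat arrays and 18 to 110 with left-out samples; Fgfr2 was then the 1 member called with quantile normalization, with normexp, with the mean of probes and without M-133- untreated sample 1. Samples with the same replicate number did not deviate together (r -0.153 to 0.076 over 18 pairs, none over 0.1), nor did those with the same title number (-0.012 to 0.112 over 6 pairs, 1 over 0.1). The replicate block gave 20 genes for the M+133+ response, 115 for the M-133- response and 24 for the interaction, with 1527 and 2709 genes for the untreated and DDC sort comparisons, and changed no call of a member, though Fosl1 lost its untreated call (adjusted p = 0.0575). The title number block gave 821 genes and 2 members for the untreated sort comparison, where Hgf (adjusted p = 0.0788) and Hbegf (adjusted p = 0.0841) were lost, and 1 gene for the interaction. Erbb3 was called in untreated cells with quantile normalization (adjusted p = 0.0168), normexp (0.0125), the mean of probes (0.0169) and slide as a fixed (0.0312) or random (0.0127) block. The interaction's split of 14 higher and 46 lower became 5 and 45 with the array median as centre. Within-slide values could not be had for the sorts after DDC. The causes were not tested. With 2 M-133- untreated samples, a fit without 1 of them assumes that the other varies like the remaining groups.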
